A study of Mus musculus with 6 samples.

Results

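The 33 genes described here are glucose and lactate transporters, glycolytic enzymes, regulators of glycolytic flux, and genes of the hypoxia-inducible factor (HIF) pathway with others known to respond to low oxygen. They were picked by symbol from the 31053 features of the deposited single-cell count tables. All 33 symbols were found; Aldoa was carried by 2 features, and the one used held 193523 UMIs in named cells against 9 for the other. The samples were whole colon tumours of male mice, each with its own library: 3 belong to the model named Apc ICI and 3 to that named AOM PN. Both models carry VilCreER, a tamoxifen-inducible Cre driven by the villin promoter, which is active in intestinal epithelium. Apc ICI mice were Apc fl/fl, and recombination was induced in the colon itself by a single submucosal injection of 70 µl of 100 µM 4-OH tamoxifen, with no carcinogen. AOM PN mice were P53 fl/fl with a Notch1 transgene; they received 2 mg of tamoxifen intraperitoneally and, from day 4, the carcinogen azoxymethane (AOM) at 10 mg/kg weekly for 6 weeks, and the labels place them in an ageing tumour group. The sources used here give no ages. Genotype, carcinogen, route of induction and any technical batch that follows the models cannot be told apart.

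Glycolysis splits glucose into pyruvate and yields ATP without oxygen. Glucose enters through GLUT transporters (Slc2a genes), is trapped by hexokinase, committed by phosphofructokinase, and ends as pyruvate, which lactate dehydrogenase turns into lactate for export by the transporter Slc16a3 (MCT4). When oxygen is low, prolyl hydroxylases of the Egln family stop marking HIF-1α for destruction, and HIF binds short DNA motifs near its target genes, among them most glycolytic genes, Vegfa, Bnip3 and Egln3 itself. Solid tumours often hold poorly perfused regions, and neutrophils rely on glycolysis for most of their energy. Hif1a is controlled mainly at the protein level, so its RNA does not report HIF activity.

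After filtering, 16435 cells of Apc ICI and 29627 of AOM PN remained. Cells were clustered and classes named from marker genes, and 4 classes are used here: epithelial-like (526 to 1035 cells per library), neutrophil-like (1356 to 3756), monocyte/macrophage-like (452 to 2397) and T/NK-like (217 to 1691). Counts of each class were added up within a library; the sums held 984873 to 21305601 UMIs. The libraries held 59309093 to 98583066 UMIs each, of which haemoglobin took 1.87% to 61.4%, and any 2 libraries shared at most 0.360% of the barcodes of the smaller. The labels do not say that each tumour came from another mouse, and the p-values reflect only how far these 6 tumours spread. No cluster was named as fibroblasts, endothelium, pericytes or glia; 1 cluster of 16 cells with 5 endothelial markers detected was left unnamed because fibroblast genes outnumbered endothelial ones among its leading genes, by a rule on ties set after the clusters were seen. Epithelial-like cells were deeper in Apc ICI (median 3027.5 to 6756.5 UMIs per cell) than in AOM PN (1276 to 1640). As a look at the targeted genes in epithelial-like sums, Trp53 stood at 146 ± 12.8 CPM (counts per 1000000 after TMM scaling; mean ± SD, n = 3) in Apc ICI and 62.3 ± 6.65 in AOM PN, Notch1 at 32.0 ± 2.43 and 52.8 ± 7.52, and Apc at 76.7 ± 7.43 and 66.2 ± 8.83; 3′ tags may lie outside the deleted part, so these levels check the labels only in part. Changes below are on the log2 scale, positive where AOM PN was higher, from edgeR's quasi-likelihood test, adjusted over all genes of a class, and "rose" and "fell" mean a higher or lower level in AOM PN at an adjusted p under 0.05. Scaling by library totals instead of TMM would lower the median change of all genes by 0.14 in epithelial-like, 0.43 in neutrophil-like, 0.17 in monocyte/macrophage-like and 0.08 in T/NK-like sums, and the share of higher calls would go from 52.5% to 40.8%, 46.1% to 11.0%, 41.8% to 15.5% and 52.4% to 29.9%.

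The upstream sequences of 3 members are shown because these genes changed strongly and in different directions in epithelial-like cells: Bnip3 had the largest fall, Hk2 the largest rise, and Egln3 is a classical HIF target that rose. Each is the 250 bases before the transcription start, written 5′ to 3′ on the gene's strand, from RefSeq on GRCm38.p6; capitals mark ACGTG or GCGTG, the core of the HIF motif, on either strand (CACGT and CACGC are the reverse complements). Bnip3 lies on the minus strand at chr7:138909507-138909756, Hk2 on the minus strand at chr6:82774455-82774704 and Egln3 on the minus strand at chr12:54203875-54204124.
Bnip3: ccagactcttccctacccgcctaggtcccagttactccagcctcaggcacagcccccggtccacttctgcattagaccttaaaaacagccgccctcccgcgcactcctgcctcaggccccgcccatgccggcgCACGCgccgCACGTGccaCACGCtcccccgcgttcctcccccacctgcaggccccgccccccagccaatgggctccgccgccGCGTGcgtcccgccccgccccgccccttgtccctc
Hk2: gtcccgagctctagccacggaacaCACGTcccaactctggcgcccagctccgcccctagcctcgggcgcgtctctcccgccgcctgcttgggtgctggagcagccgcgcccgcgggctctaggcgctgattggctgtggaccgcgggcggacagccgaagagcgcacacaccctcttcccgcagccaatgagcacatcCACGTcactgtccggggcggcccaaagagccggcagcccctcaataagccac
Egln3: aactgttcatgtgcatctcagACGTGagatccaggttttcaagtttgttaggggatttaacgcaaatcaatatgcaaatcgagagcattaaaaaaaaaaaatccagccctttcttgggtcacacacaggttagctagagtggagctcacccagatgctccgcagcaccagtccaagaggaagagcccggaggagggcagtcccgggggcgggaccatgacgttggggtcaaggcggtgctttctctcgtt
Bnip3 holds 5 matches, which begin 117, 108, 107, 99 and 35 bases before the start, and those at 108 and 107 are the 2 strands of the same palindrome. Hk2 holds 2, at 226 and 52 bases before the start, and Egln3 holds 1, at 229. The table of upstream sequences matched 30 of the 33 members, with 41 starts; Slc2a3, Bnip3l and Ndrg1 were not matched. A match was present at 33 of these 41 starts (80.5%), against 38.6% of all 32851 starts and 55.9% of the 12073 starts of genes tested in epithelial-like cells. The mean GC content was 61.6%, 53.2% and 59.8% in the same order. These are counts of letters and do not show binding; all 3 genes shown carry the motif, the one that fell and those that rose.

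The summed level of the 14 glycolytic enzymes was highest in monocyte/macrophage-like cells. It ran from 8453 to 9542 raw CPM (UMIs per 1000000 of the class sum without haemoglobin, with no TMM) over the 6 libraries, against 5734 to 7319 in epithelial-like, 5332 to 7217 in neutrophil-like and 4427 to 5913 in T/NK-like cells. The ranges of the last 3 classes overlapped in part, and that of monocyte/macrophage-like cells overlapped none of them. These levels between classes are a description, since the classes were built by clustering the same genes. The enzyme sums had a lower mean in AOM PN in each class: 6538 ± 697 against 6001 ± 382 in epithelial-like, 6576 ± 667 against 5638 ± 386 in neutrophil-like, 9331 ± 214 against 8721 ± 327 in monocyte/macrophage-like and 5074 ± 761 against 4903 ± 118 in T/NK-like cells (Apc ICI against AOM PN, mean ± SD, n = 3). The groups did not overlap in monocyte/macrophage-like cells and overlapped in the other 3 classes. On library totals the median log2 change of all genes was itself negative in each class, at -0.11, -0.49, -0.19 and -0.10 in the same order. After TMM the median log2 change of the 14 enzymes was 0.01, 0.39, 0.04 and 0.05. The lower raw sums thus do not show a fall particular to the enzymes. The 13 HIF pathway and hypoxia-responsive genes summed to 2868, 2332 and 2251 raw CPM in the neutrophil-like cells of Apc ICI 1, 2 and 3 and to 1411, 1451 and 1457 in those of AOM PN. This was the widest gap between the groups among these sums. On library totals the median log2 change of all genes in neutrophil-like cells was itself -0.49. After TMM the median of the 11 of these genes tested was -0.25, and 2 of them, Mif and Bnip3l, fell. These 2 also had the largest raw gaps, with means of 705 in Apc ICI against 286 in AOM PN for Mif and 438 against 200 for Bnip3l.

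**Figure D1:**
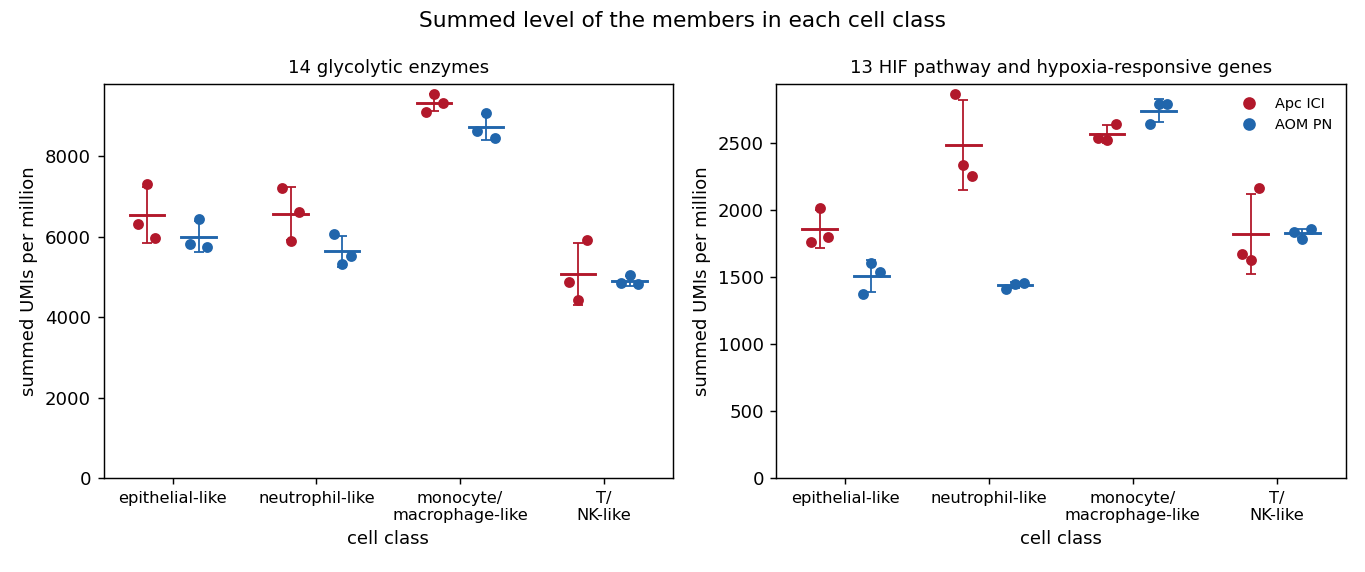
Summed raw CPM (UMIs per 1000000; vertical axis, from 0) of the 14 glycolytic enzymes and of the 13 HIF pathway and hypoxia-responsive genes in 4 cell classes; each point is 1 library, the line is the group mean and the bar its SD (n = 3). The enzyme sums are highest in monocyte/macrophage-like cells of both groups, and the sums of hypoxia genes in neutrophil-like cells are 2251 to 2868 for Apc ICI against 1411 to 1457 in AOM PN.

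Single members marked different classes (means ± SD of the 6 libraries, raw CPM). The lactate exporter Slc16a3 was highest in neutrophil-like cells at 919.6 ± 281, against 252 ± 21.6 in monocyte/macrophage-like, 80.3 ± 33.1 in epithelial-like and 59.6 ± 22.7 in T/NK-like cells. Slc2a3 (GLUT3), a high-affinity glucose transporter, showed the same lead, with 226 ± 77.8 in neutrophil-like, 41.2 ± 11.2 in T/NK-like, 1.79 ± 0.822 in epithelial-like and 1.64 ± 0.507 in monocyte/macrophage-like cells. Slc2a1 (GLUT1), the widespread basal transporter, was nearly level between neutrophil-like (179.6 ± 18.4) and monocyte/macrophage-like cells (171 ± 28.97). Vegfa, the angiogenic growth factor, was highest in monocyte/macrophage-like cells at 410.3 ± 82.2, followed by neutrophil-like cells at 166 ± 80.5. Hif1a was highest in T/NK-like cells at 618 ± 93.3, with a range that overlapped that of monocyte/macrophage-like cells (495 ± 105), and lowest in epithelial-like cells at 108 ± 13.9. Hexokinase 1 (Hk1), the constitutive isoform, was highest in T/NK-like cells (69.4 ± 8.54), and hexokinase 2 (Hk2), the inducible one, in monocyte/macrophage-like cells (204 ± 47.7). The highest class was not always the same in both models. Hk2 was nearly level between monocyte/macrophage-like (234 ± 36.9; n = 3) and epithelial-like cells (228 ± 61.6) of AOM PN. Aldoc, a tissue-restricted aldolase, was highest in epithelial-like cells of Apc ICI (58.4 ± 15.1), but in AOM PN stood at 13.2 ± 5.17 there and 23.2 ± 6.47 in monocyte/macrophage-like cells. Ndrg1 likewise led in epithelial-like cells of Apc ICI (109 ± 13.2) and in monocyte/macrophage-like cells of AOM PN (58.2 ± 2.49). Adm, which encodes the vasodilator peptide adrenomedullin, was highest in epithelial-like cells of both models (9.96 ± 7.02 in Apc ICI, 18.3 ± 12.2 in AOM PN). By group mean, 27 of the 33 members had the same highest class of these 4 in both models: monocyte/macrophage-like for 12, neutrophil-like for 7, epithelial-like for 6 and T/NK-like for 2. In the other 6, Pfkp, Aldoa, Aldoc, Ndrg1, Ankrd37 and Pfkfb3, it differed. Some members were higher still in classes outside the 4. Bnip3l stood at 11696 in erythroid-like and P4ha2 at 14.4 in mast-like cells. Ddit4, Pfkp and Ndrg1 stood at 516, 383 and 158 in basophil-like sums, which held 39 and 26 cells of AOM PN 1 and 2.

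In epithelial-like cells the hypoxia-responsive genes Bnip3, Ndrg1 and P4ha2 and the aldolase Aldoc were several-fold lower in AOM PN than in Apc ICI, while Hk2, Egln3, Pfkp and Hk1 were higher. Bnip3 fell 7.51-fold and Hk2 rose 2.94-fold, and the most abundant glycolytic transcript, Gapdh, did not pass the test. Known HIF targets thus went both ways in the same class. Of the 33 members 32 passed the filter on low counts; 8 rose and 9 fell. Of all 12193 genes tested, 20.7% rose and 18.7% fell, and 53.1% of the members tested were called against 39.4% of all genes. The median change of the members tested was 0.08, beside 0.02 for all genes.

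**Figure D2:**
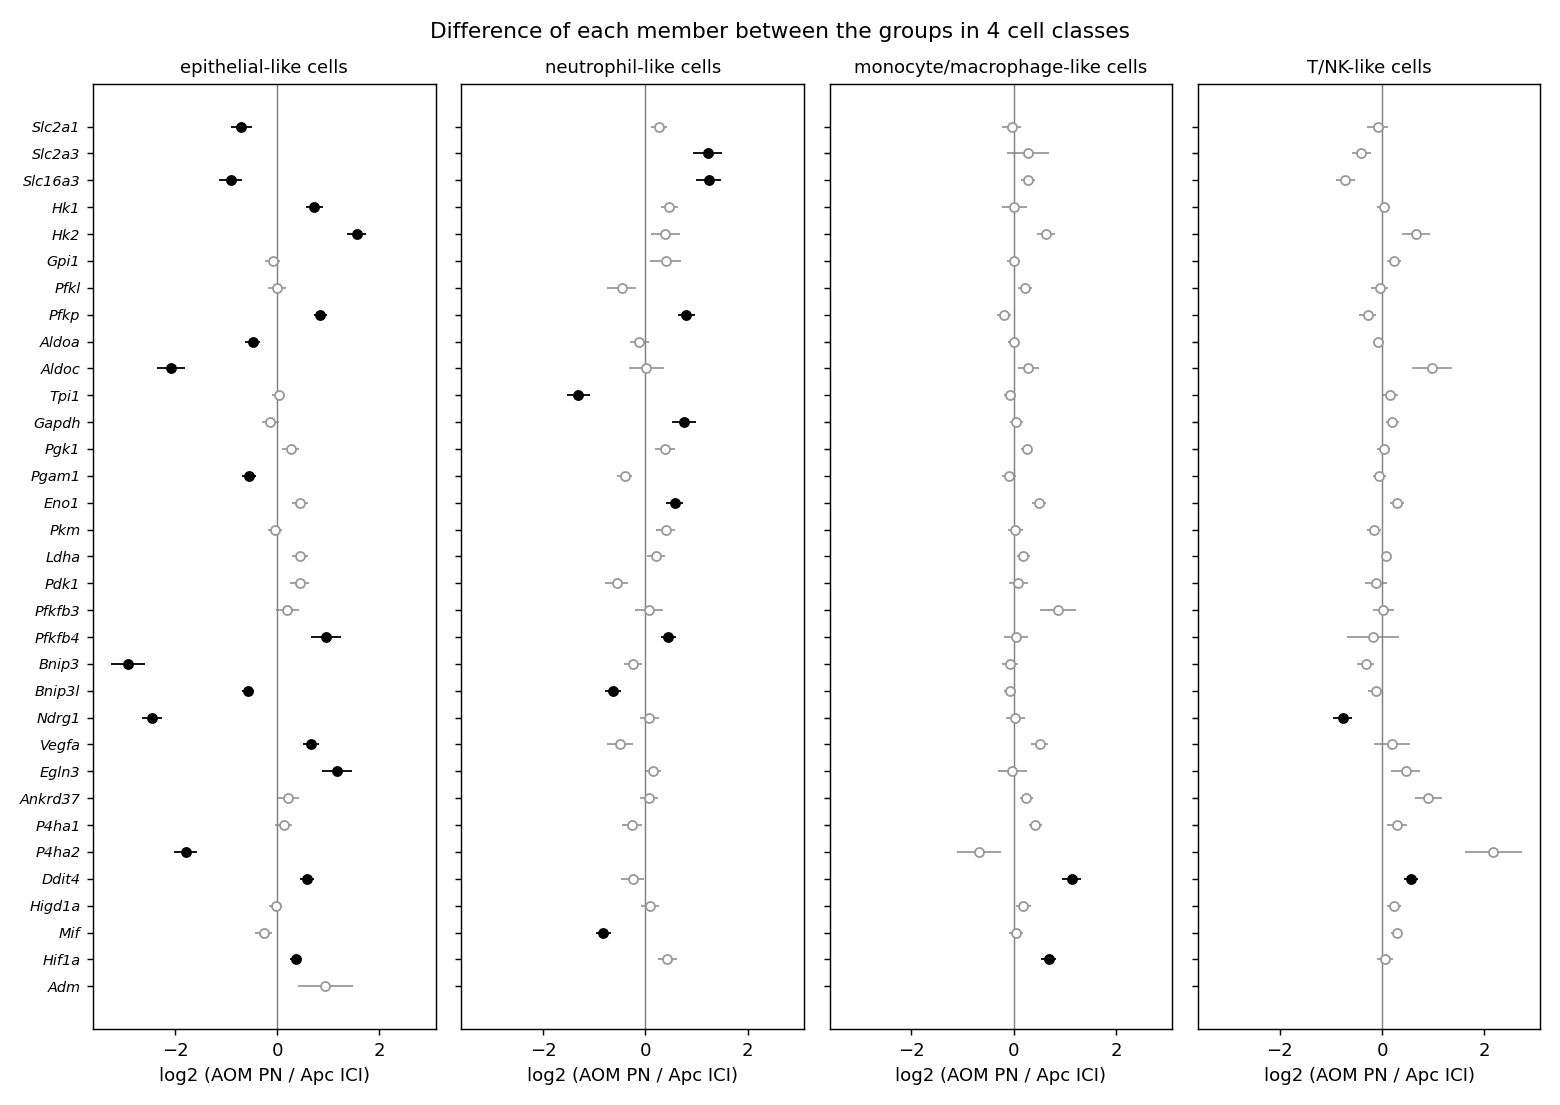
Log2 ratio of AOM PN over Apc ICI (horizontal axis) for each member (vertical axis, by role) in 4 cell classes, with its SE; filled points have an adjusted p under 0.05, open points do not, and members not tested have no point. Epithelial-like cells hold 17 filled points, neutrophil-like cells 9, and each of the other 2 classes 2.

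Among the transporters in epithelial-like cells, Slc16a3 stood at 109, 108 and 86.5 CPM in Apc ICI 1 to 3, against 34.99, 58.3 and 70.4 for AOM PN 1 to 3. Every AOM PN library was below every Apc ICI library (log2 change -0.91 with SE 0.23, adjusted p = 0.0124). Slc2a1 also fell (-0.70), but its call was lost on leaving out Apc ICI 1 or 2, or AOM PN 1 or 2 (adjusted p = 0.0600 to 0.0787). Slc2a3 was too low to test, with 34 UMIs in the Apc ICI sums and 25 in the AOM PN sums. With doublets kept Slc16a3 changed by -0.12 at an adjusted p of 0.621; its epithelial level was 8.73% of that in neutrophil-like cells. Markers of neutrophils in the epithelial-like sums totalled 213 to 848 raw CPM for Apc ICI against 742 to 2126 in AOM PN, with none of the 9 at 0, against 149350.00 in neutrophil-like cells themselves. Their part in the Slc16a3 level was not tested.

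Of the 14 glycolytic enzymes in epithelial-like cells, 3 rose, 3 fell and 8 did not pass the test. Hk2, which traps glucose in the cell as glucose 6-phosphate, stood at 90.1, 79.4 and 69.5 CPM in Apc ICI 1 to 3, against 179, 239 and 286 for AOM PN 1 to 3. The AOM PN libraries were all above those of Apc ICI (log2 change 1.55 with SE 0.19, adjusted p = 2.56e-04), and the call held under each alternative run. Hk1 rose by 0.73 and Pfkp, the platelet-type phosphofructokinase, by 0.84. Aldoc, an aldolase best known from brain, stood at 69.6, 55.1 and 40.7 CPM in Apc ICI 1 to 3, against 8.80, 13.5 and 18.4 for AOM PN 1 to 3. All 3 AOM PN values lay below the lowest Apc ICI value (log2 change -2.08 with SE 0.28, adjusted p = 4.56e-04). The main aldolase, Aldoa, was at 754, 762 and 634 CPM in Apc ICI 1 to 3, against 512, 568 and 462 for AOM PN 1 to 3, a smaller fall with groups that did not overlap (log2 change -0.48 with SE 0.14, adjusted p = 0.0269); its call was lost on leaving out Apc ICI 1 or 2 (adjusted p = 0.0543 to 0.0731). Pgam1, phosphoglycerate mutase, fell by 0.55.

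The abundant enzymes otherwise gave no call in epithelial-like cells. Gapdh stood at 1857, 2254 and 1724 CPM in Apc ICI 1 to 3, against 1865, 1895 and 1575 for AOM PN 1 to 3, and the groups overlapped (log2 change -0.13 with SE 0.16, adjusted p = 0.555). Pkm, pyruvate kinase, stood at 649.5, 790.03 and 655 CPM in Apc ICI 1 to 3, against 667, 704 and 668 for AOM PN 1 to 3, likewise with overlap (log2 change -0.04 with SE 0.14, adjusted p = 0.845). Ldha, which makes lactate, stood at 614, 774 and 624 CPM in Apc ICI 1 to 3, against 989, 961 and 785 for AOM PN 1 to 3. Its AOM PN values were all above those of Apc ICI, but the adjusted p missed the threshold (log2 change 0.44 with SE 0.16, adjusted p = 0.0507). Eno1, enolase, was as close (log2 change 0.44 with SE 0.16, adjusted p = 0.05001). The other enzymes without a call, Gpi1, Pfkl, Tpi1 and Pgk1, had log2 changes from -0.09 (Gpi1) to 0.26 (Pgk1, which makes the first ATP of the pathway). In cells of at least 10000 UMIs alone, Eno1, Ldha and Pgk1 were called higher (0.70, 0.69 and 0.54; adjusted p = 0.00806, 0.00276 and 0.0256), an alternative chosen after seeing the data.

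Of the regulators, Pfkfb4, which makes an activator of phosphofructokinase, rose in epithelial-like cells (log2 change 0.96 with SE 0.30, adjusted p = 0.0318) at the low level of 4.34 ± 1.28 CPM for Apc ICI against 8.74 ± 1.64 in AOM PN (SD, n = 3). That call was lost on leaving out Apc ICI 1 or 3, or AOM PN 2 or 3 (adjusted p = 0.0608 to 0.0901). Its relative Pfkfb3 changed by 0.20 and Pdk1, a pyruvate dehydrogenase kinase, by 0.44, and neither was called.

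The HIF pathway and hypoxia-responsive genes split evenly in epithelial-like cells, with 4 of 13 higher, 4 lower and 5 not called. Bnip3, a mitochondrial protein that promotes mitophagy, stood at 144, 126 and 109 CPM in Apc ICI 1 to 3, against 7.45, 22.4 and 22.2 for AOM PN 1 to 3. AOM PN 1 was lowest, and no AOM PN library came near the Apc ICI values (log2 change -2.91 with SE 0.33, adjusted p = 1.95e-04). Ndrg1, a stress-responsive gene induced by low oxygen, stood at 117, 96.5 and 94.7 CPM in Apc ICI 1 to 3, against 13.3, 21.9 and 22.2 for AOM PN 1 to 3, with the groups far apart (log2 change -2.45 with SE 0.20, adjusted p = 3.78e-05). P4ha2, a subunit of collagen prolyl 4-hydroxylase, stood at 16.7, 18.7 and 14.1 CPM in Apc ICI 1 to 3, against 4.74, 3.96 and 5.98 for AOM PN 1 to 3. Its counts were low, 541 UMIs in Apc ICI against 50 in AOM PN, and the groups did not overlap (log2 change -1.79 with SE 0.23, adjusted p = 3.60e-04). Bnip3l, the close relative of Bnip3, fell less (-0.57), and its level was 1.4% of that in erythroid-like cells. Markers of erythroid cells in these sums totalled 6344 to 27718 raw CPM for Apc ICI against 915 to 20578 in AOM PN. Their part in the Bnip3l change was not tested. Calls of Bnip3, Bnip3l and Ndrg1, and of P4ha2 wherever it passed the filter, held under each alternative run.

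Egln3, a prolyl hydroxylase of the Egln family, whose enzymes mark HIF-1α for destruction, is itself a HIF target and went the other way. It stood at 42.4, 54.5 and 35.7 CPM in Apc ICI 1 to 3, against 64.3, 87.4 and 151 for AOM PN 1 to 3. AOM PN 3 was highest, and all 3 AOM PN values exceeded those of Apc ICI (log2 change 1.17 with SE 0.29, adjusted p = 0.0118). Without AOM PN 3 the change was 0.74 at an adjusted p of 0.0287. Of its relatives outside the members, Egln1 fell from 77.7 ± 8.73 to 48.8 ± 6.82 CPM (log2 change -0.67, adjusted p = 0.00644), and Egln2 was not called (-0.05). Hif1a itself stood at 91.8, 92.1 and 95.7 CPM in Apc ICI 1 to 3, against 109, 131 and 120.4 for AOM PN 1 to 3. The rise was small with groups that did not overlap (log2 change 0.37 with SE 0.12, adjusted p = 0.0345), and the call was lost on leaving out Apc ICI 1, 2 or 3, or AOM PN 2 or 3 (adjusted p = 0.0724 to 0.151). Vegfa rose by 0.66 and Ddit4 (REDD1), a stress-induced inhibitor of mTORC1, by 0.58. Mif, a cytokine, was among the most abundant members at 594, 849 and 703 CPM in Apc ICI 1 to 3, against 632, 599 and 553 for AOM PN 1 to 3, with overlap and no call (log2 change -0.27 with SE 0.16, adjusted p = 0.225). Adm varied widely, from 4.08 to 16.96 CPM for Apc ICI against 11.3 to 32.7 in AOM PN, and was not called. The remaining 3, the mitochondrial protein Higd1a (-0.02), P4ha1 (0.13) and the HIF target Ankrd37 (0.22), were not called.

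**Figure D3:**
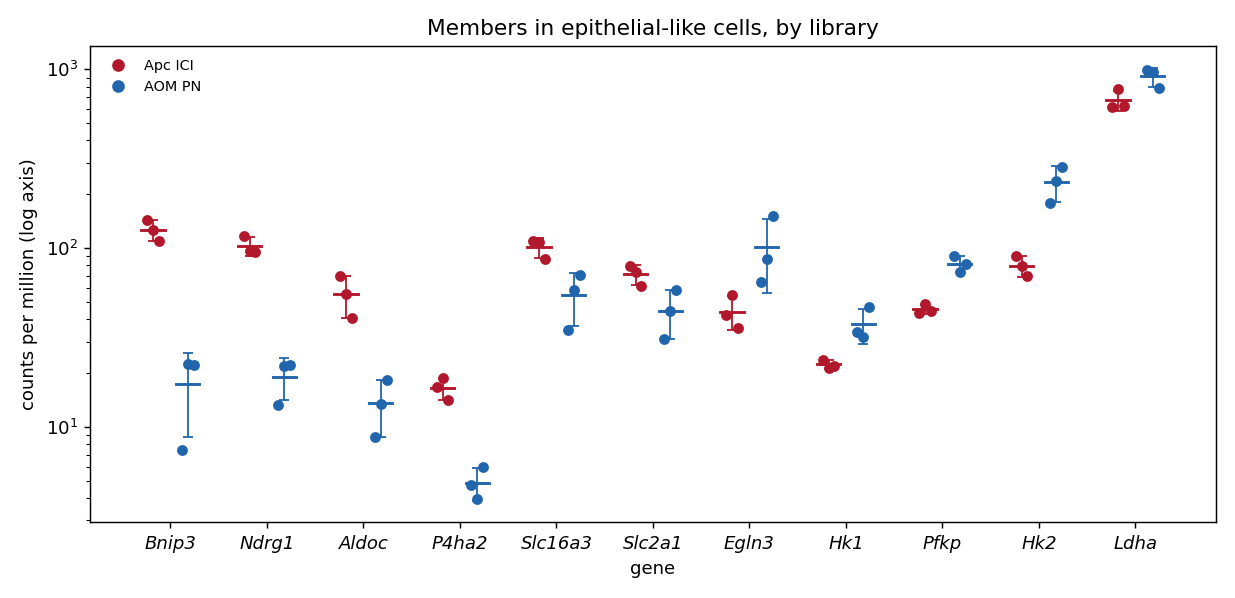
CPM (counts per 1000000 after TMM; log axis) of 11 members in epithelial-like cells; each point is 1 library, the line is the group mean and the bar its SD (n = 3). From Bnip3 to Slc2a1 the AOM PN points lie below all Apc ICI points, and from Egln3 to Ldha above them.

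Levels were taken only in epithelial-like sub-clusters of at least 300 cells. Among these, Vegfa, Ddit4, Egln3 and Hk2 were all highest in 1 sub-cluster of shallow AOM PN cells. It was led by Gm26917, Tcim and Lars2 (median 1185 UMIs) and held 509 of 1035, 398 of 681 and 326 of 526 epithelial-like cells of AOM PN 1, 2 and 3, but 3, 9 and 14 cells of the Apc ICI libraries. Across the 3 AOM PN libraries it carried 221 to 304 raw CPM of Vegfa, 359.8 to 522 of Ddit4, 150.3 to 258 of Egln3 and 335 to 500.1 of Hk2, and 348 to 456 of Gapdh. In the sub-cluster led by Pyy, Gpx2 and Lgals4, of like depth (median 1191 UMIs), the same libraries held 5.28 to 16.4 of Vegfa, 78.1 to 118 of Ddit4, 42.2 to 59.97 of Egln3, 28.1 to 80.8 of Hk2 and 2270.4 to 3622 of Gapdh. The alternative that left out every sub-cluster led by Gm26917 dropped this one and also one of mostly Apc ICI cells, led by Gm26917, Prox1 and Spock2 (139, 159 and 119 cells of Apc ICI 1 to 3; 9, 7 and 19 of AOM PN), and 1 of 36 cells, so it does not show what the AOM PN cells alone contribute. In it the Vegfa change was -0.15 at an adjusted p of 0.668 and that of Ddit4 0.05 at an adjusted p of 0.839, and in cells of at least 10000 UMIs they were -0.27 at an adjusted p of 0.396 and -0.09 at an adjusted p of 0.680. The change of Egln3 was 0.83 at an adjusted p of 0.0743 and 0.64 at an adjusted p of 0.131 in the same alternatives, both chosen after seeing the data.

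In the same alternative without Gm26917-led sub-clusters Hk2 changed by 1.45 at an adjusted p of 5.36e-04, Bnip3 by -2.71 at an adjusted p of 0.00136, Ndrg1 by -2.46 at an adjusted p of 1.26e-04, Aldoc by -1.89 at an adjusted p of 0.00223 and P4ha2 by -1.76 at an adjusted p of 0.00103. In the 3 Apc ICI libraries Bnip3 stood at 157 to 172 raw CPM in the deep sub-cluster led by Mt3, Mt4 and Ptn (median 29805 UMIs) and at 93.8 to 173 in the shallow one led by Mt3, Mt4 and Sox4 (median 799.5 UMIs). Neither of these sub-clusters held 20 cells of any AOM PN library, so a different mix of epithelial cells and a different level within like cells cannot be told apart. Markers of other classes in the epithelial-like sums were also higher in AOM PN for mast cells (33.7 to 132 raw CPM for Apc ICI against 313 to 1893 in AOM PN, none of 7 at 0, with 155248 in mast-like cells). Markers of monocytes and macrophages totalled 118 to 176 and 194 to 231, none of 12 at 0, with 22499 in their own class. Markers of T and NK cells totalled 12.4 to 18.6 for Apc ICI against 142 to 209.5 in AOM PN, with 1 of 12 (Ncr1) at 0 and 7674 in their own class; Hif1a, which rose here, stood at 17.4% of its level in T/NK-like cells. The part of these in the changes was not tested.

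In neutrophil-like cells the transporters Slc16a3 and Slc2a3 rose about as strongly as the glycolytic enzyme Tpi1 fell. Slc16a3 rose 2.36-fold, Slc2a3 rose 2.33-fold and Tpi1 fell 2.48-fold, and Mif and Bnip3l fell as well. Of the 33 members 31 passed the filter on low counts; 6 rose and 3 fell. Of all 9252 genes tested, 15.0% rose and 17.6% fell, and 29.0% of the members tested were called against 32.6% of all genes, a smaller share. P4ha2 and Adm were too low to test (13 and 25 UMIs for Apc ICI and 3 of each for AOM PN).

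Slc16a3, which exports lactate, stood at 491, 511 and 710.1 CPM in Apc ICI 1 to 3, against 1793, 1082 and 1166 for AOM PN 1 to 3. AOM PN 1 was highest, and every AOM PN library was above every Apc ICI library (log2 change 1.24 with SE 0.24, adjusted p = 0.00667). Slc2a3 stood at 114, 138 and 176 CPM in Apc ICI 1 to 3, against 482, 287 and 225 for AOM PN 1 to 3, with the same order of the groups (log2 change 1.22 with SE 0.29, adjusted p = 0.0126); its call was lost on leaving out Apc ICI 1 (adjusted p = 0.0536). Slc2a1 was not called (0.27). With library totals in place of TMM, Slc16a3 and Slc2a3 remained called (0.78 and 0.75).

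Of the 14 enzymes, Pfkp, Gapdh and Eno1 rose and Tpi1 fell in neutrophil-like cells. Tpi1, triose-phosphate isomerase, stood at 413, 355 and 349 CPM in Apc ICI 1 to 3, against 208, 121 and 122 for AOM PN 1 to 3. The highest AOM PN value was well below the lowest Apc ICI value (log2 change -1.31 with SE 0.23, adjusted p = 0.00427). Pfkp stood at 95.2, 90.6 and 102 CPM in Apc ICI 1 to 3, against 203, 148 and 151 for AOM PN 1 to 3, all AOM PN values being higher (log2 change 0.80 with SE 0.17, adjusted p = 0.00863). Gapdh, the next step after Tpi1, stood at 1163, 1091 and 1527 CPM in Apc ICI 1 to 3, against 2751, 1667 and 1929 for AOM PN 1 to 3. The groups did not overlap (log2 change 0.75 with SE 0.24, adjusted p = 0.0376), and the call was lost on leaving out Apc ICI 1 or 2, or AOM PN 1 (adjusted p = 0.0794 to 0.130). Eno1, enolase, rose by 0.58, a call lost on leaving out Apc ICI 1 or 2, or AOM PN 1 or 2 (adjusted p = 0.0505 to 0.116). With library totals in place of TMM, the calls of Pfkp (0.34), Gapdh (0.29) and Eno1 (0.12) were lost. In that run 13 of the 31 members tested were called, with Tpi1 at -1.80. Of all 9252 genes tested, 376 were called higher and 3055 lower there.

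The other abundant enzymes were not called in neutrophil-like cells. Aldoa stood at 1022, 909.7 and 1062 CPM in Apc ICI 1 to 3, against 1093, 774 and 893 for AOM PN 1 to 3, with overlap (log2 change -0.12 with SE 0.18, adjusted p = 0.647). Pkm stood at 714, 719 and 798 CPM in Apc ICI 1 to 3, against 1197, 923 and 827 for AOM PN 1 to 3; the AOM PN values were all higher but did not pass the test (log2 change 0.40 with SE 0.18, adjusted p = 0.121). Ldha stood at 530.01, 481 and 509 CPM in Apc ICI 1 to 3, against 709, 525 and 515 for AOM PN 1 to 3, with overlap (log2 change 0.20 with SE 0.18, adjusted p = 0.402). The remaining enzymes had log2 changes from -0.46 (Pfkl) to 0.47 (Hk1). Of the regulators, Pfkfb4 rose by 0.45, lost on leaving out Apc ICI 1 or 2, or AOM PN 1 or 2 (adjusted p = 0.0611 to 0.161) and with library totals (0.02); Pfkfb3 and Pdk1 were not called (0.07 and -0.56).

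Of the 11 HIF pathway and hypoxia-responsive genes tested in neutrophil-like cells, 2 fell and none rose. Mif, a cytokine that HIF can induce, stood at 611, 560.02 and 559 CPM in Apc ICI 1 to 3, against 327, 292 and 361 for AOM PN 1 to 3, with no overlap (log2 change -0.82 with SE 0.16, adjusted p = 0.00573). Bnip3l fell by 0.63; that call was lost on leaving out Apc ICI 1, or AOM PN 2 (adjusted p = 0.0620 to 0.0767). Bnip3l was far higher in erythroid-like cells, at 11696 raw CPM, and markers of erythroid cells in the neutrophil-like sums totalled 26462 to 68328 raw CPM for Apc ICI against 2275 to 25892 in AOM PN, none of 6 at 0. Mast cell markers totalled 28.8 to 98.5 against 293 to 2821, none of 7 at 0. The part of either in these changes was not tested. Hif1a stood at 244, 263 and 288 CPM in Apc ICI 1 to 3, against 454, 313 and 303 for AOM PN 1 to 3; all AOM PN values were higher, without a call (log2 change 0.43 with SE 0.19, adjusted p = 0.112). The others had log2 changes from -0.49 (Vegfa) to 0.15 (Egln3), and Bnip3 and Ndrg1, which fell most in epithelial-like cells, changed by -0.25 and 0.08.

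**Figure D4:**
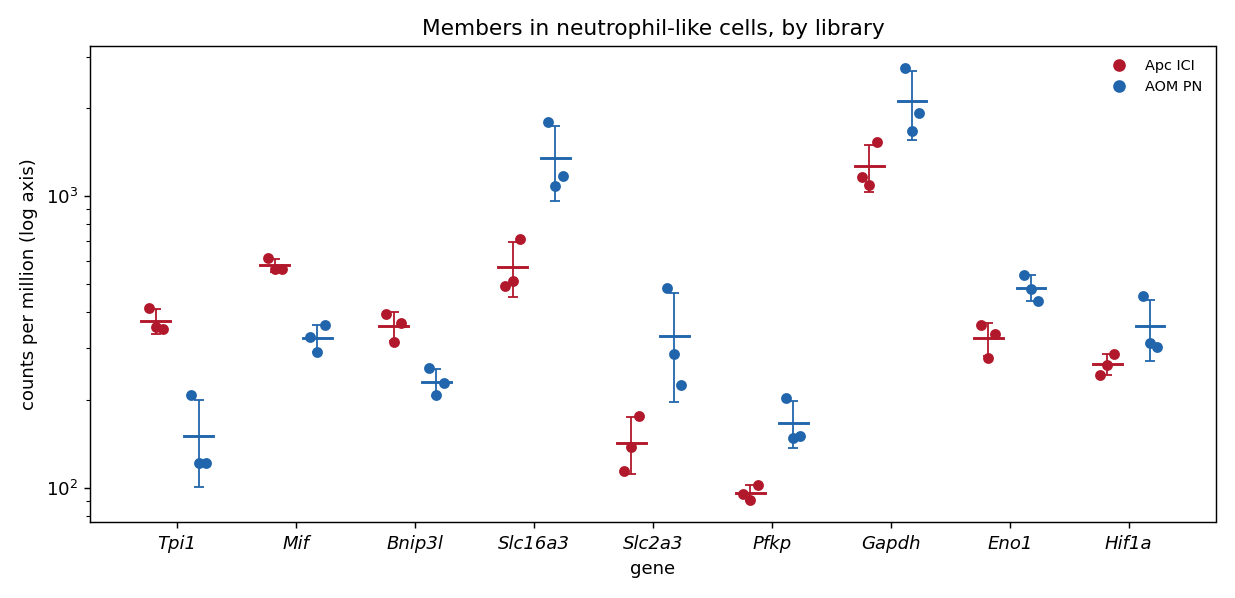
CPM (counts per 1000000 after TMM; log axis) of 9 members in neutrophil-like cells; each point is 1 library, the line is the group mean and the bar its SD (n = 3). Tpi1, Mif and Bnip3l are lower in all AOM PN libraries, and the other 6 are higher, Hif1a without passing the test.

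The groups filled different neutrophil-like clusters, and the members differed between these clusters. The cluster led by Cstb, Hmox1 and Ftl1 held 669, 1331 and 427 cells of Apc ICI 1, 2 and 3 and 26, 54 and 28 of AOM PN. In raw CPM, over libraries with at least 20 cells of a cluster, Tpi1 ran there from 936 to 1026 for Apc ICI against 200.1 to 959 in AOM PN. Mif ran from 1340.00 to 1497 for Apc ICI against 583 to 1362 in AOM PN, and Slc16a3 from 253 to 348 for Apc ICI against 219.7 to 606 in AOM PN. The 2 clusters led by S100a9 with G0s2 and by Retnlg held 5315 and 1586 cells of AOM PN and 590 and 370 of Apc ICI. In the first of these Slc16a3 ran from 749.8 to 1052 for Apc ICI against 1069.9 to 1285 in AOM PN, and in the second from 1214 to 1298 for Apc ICI against 1195 to 1502 in AOM PN. Tpi1 in the second ran from 48.1 to 81.5 for Apc ICI against 44.7 to 103 in AOM PN, its lowest level by pooled libraries among the 5 clusters. Slc2a3 was likewise highest in the Retnlg-led cluster (358 to 433 for Apc ICI against 406 to 511 in AOM PN) and lowest in the one led by Il23a (58.9 to 64.2 for Apc ICI against 68.99 to 99.4 in AOM PN).

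Within the Il23a-led cluster, which all 6 libraries filled with 138 to 1070 cells, the falls were not seen. Tpi1 changed by 0.10 at an adjusted p of 0.870, Mif by 0.30 at an adjusted p of 0.416 and Bnip3l by 0.05 at an adjusted p of 0.931 there. Slc16a3 and Slc2a3 were still higher in AOM PN but not called (0.61 and 0.74; adjusted p = 0.0960 and 0.0861). Hk2 (0.83 at an adjusted p of 0.0304) and P4ha1, a subunit of collagen prolyl 4-hydroxylase (0.98 at an adjusted p of 0.0385), were called higher. This alternative was chosen after seeing the data; it held fewer cells, and 164 genes in all were called in it. A different mix of neutrophil-like cells and a different level within like cells cannot be told apart in the class sums.

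**Figure D5:**
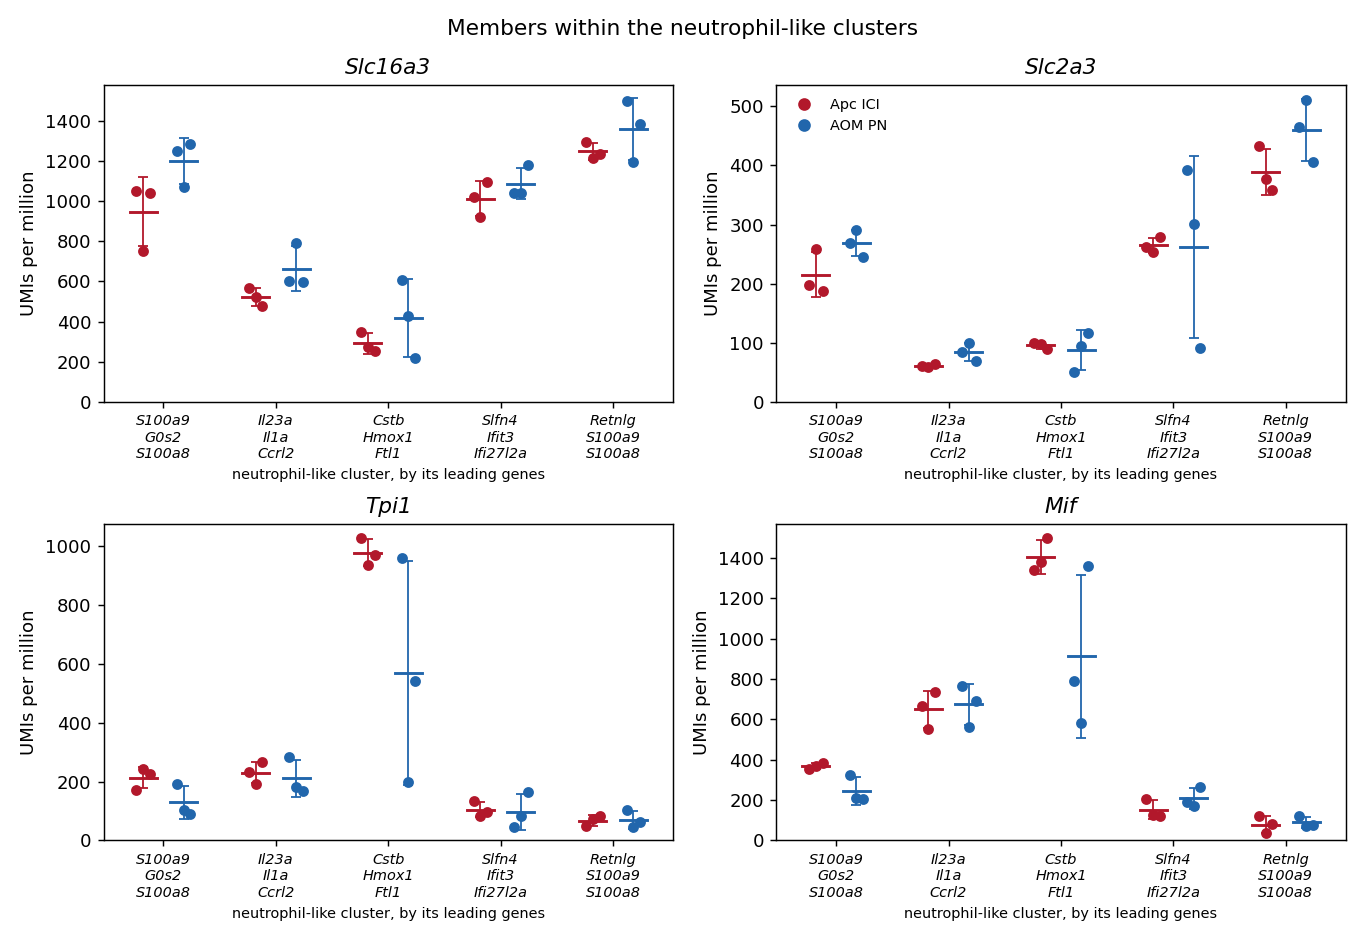
Raw CPM (UMIs per 1000000; vertical axis, from 0) of Slc16a3, Slc2a3, Tpi1 and Mif in 5 neutrophil-like clusters, named by their leading genes; each point is 1 library with at least 20 cells, the line is the group mean and the bar its SD (n = 3). Tpi1 and Mif peak in the cluster led by Cstb and Slc16a3 in the one led by Retnlg, in both groups.

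In monocyte/macrophage-like cells the stress gene Ddit4 and Hif1a rose, and no other member passed the test. Of the 33 members 32 passed the filter; 2 rose and none fell in edgeR's test. Of all 11034 genes tested 1.21% rose and 1.68% fell. At an unadjusted p under 0.05, 8 were higher and 0 lower, and DESeq2 called 5 higher and 0 lower. The shares of all genes given above are edgeR's at an adjusted p under 0.05. No share of all genes was taken at an unadjusted p under 0.05. The count of all genes that DESeq2 called in this class is given in the last section. Neither of these further counts is read as a result about the members. Ddit4 stood at 71.7, 44.2 and 51.7 CPM in Apc ICI 1 to 3, against 140.2, 124 and 105 for AOM PN 1 to 3, with every AOM PN value higher (log2 change 1.13 with SE 0.19, adjusted p = 0.0233); the call was lost on leaving out Apc ICI 2 or 3, or AOM PN 1 (adjusted p = 0.0514 to 0.0996). Hif1a stood at 448, 317 and 365 CPM in Apc ICI 1 to 3, against 619, 645 and 549 for AOM PN 1 to 3, again without overlap (log2 change 0.68 with SE 0.15, adjusted p = 0.0494); the call was lost on leaving out Apc ICI 1, 2 or 3, or AOM PN 1 or 2 (adjusted p = 0.0520 to 0.201). In the cluster led by Ccl24, C1qb and H2-Ab1, Ddit4 ran in raw CPM from 12.6 to 32.4 for Apc ICI against 71.6 to 121 in AOM PN, and Hif1a from 327 to 348 for Apc ICI against 524 to 544 in AOM PN. In the cluster led by Arg1, Spp1 and Fn1, Ddit4 ran from 107 to 145 for Apc ICI against 125 to 207 in AOM PN, with overlap, and Hif1a from 494 to 657 for Apc ICI against 656 to 759.7 in AOM PN. The groups filled these clusters unequally: the one led by Apoe, C1qa and C1qb, with the lowest pooled Hif1a of the 4 clusters (151 raw CPM), held 295 of 756, 409 of 738 and 247 of 452 cells of Apc ICI 1 to 3 but 440 of 2146, 178 of 1937 and 203 of 2397 of AOM PN, and the Arg1-led one 194, 142 and 81 against 812, 778 and 625. A different mix and a different level within like cells cannot be told apart. The class's own markers totalled 24343 to 29228 raw CPM for Apc ICI against 16378 to 19780.2 in AOM PN, none of 12 at 0, and mast cell markers 14.9 to 53.9 against 127 to 1273, none of 7 at 0. Markers of neutrophils in these sums totalled 6720.2 to 7793 raw CPM for Apc ICI against 9254 to 12431 in AOM PN, none of 9 at 0; their part was not tested.

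The most abundant members gave no call in monocyte/macrophage-like cells. Gapdh stood at 2443, 2683 and 2672 CPM in Apc ICI 1 to 3, against 2606, 2749.8 and 2738 for AOM PN 1 to 3, with overlap (log2 change 0.05 with SE 0.12, adjusted p = 0.835). Pkm stood at 1050.4, 1018 and 1018 CPM in Apc ICI 1 to 3, against 1096, 1198 and 860.01 for AOM PN 1 to 3 and Aldoa at 1048, 999.7 and 1031 CPM in Apc ICI 1 to 3, against 1086, 1058 and 932 for AOM PN 1 to 3. The groups overlapped for both, and neither was called (adjusted p = 0.926 and 0.998). Ldha stood at 777, 854 and 872 CPM in Apc ICI 1 to 3, against 1054, 908 and 892 for AOM PN 1 to 3, with all AOM PN values higher and no call (log2 change 0.19 with SE 0.12, adjusted p = 0.406). Mif stood at 671, 806 and 805 CPM in Apc ICI 1 to 3, against 749, 689 and 914 for AOM PN 1 to 3, with overlap (log2 change 0.04 with SE 0.15, adjusted p = 0.895). The other members tested ranged from -0.69 (P4ha2) to 0.87 (Pfkfb3, whose AOM PN libraries spread from 36.4 to 118 CPM). Adm was not tested, with 29 UMIs for Apc ICI and 25 for AOM PN.

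In T/NK-like cells Ddit4 rose and Ndrg1 fell, and both calls were fragile. Of the 33 members 32 passed the filter, and of all 10410 genes tested 3.41% rose and 3.09% fell. Ddit4 stood at 92.8, 101 and 123 CPM in Apc ICI 1 to 3, against 138, 174 and 153 for AOM PN 1 to 3; the groups did not overlap (log2 change 0.57 with SE 0.14, adjusted p = 0.0451), and the call was lost without any 1 of the 6 libraries (adjusted p = 0.0607 to 0.135). Ndrg1 stood at 72.2, 69.97 and 86.03 CPM in Apc ICI 1 to 3, against 38.9, 36.1 and 57.2 for AOM PN 1 to 3; the AOM PN values were all lower (log2 change -0.77 with SE 0.19, adjusted p = 0.0442), and the call was lost on leaving out Apc ICI 1, 2 or 3, or AOM PN 1 or 2 (adjusted p = 0.0938 to 0.124). Hif1a, the fourth most abundant member here, stood at 565, 496 and 693 CPM in Apc ICI 1 to 3, against 545, 556 and 721 for AOM PN 1 to 3, with overlap (log2 change 0.06 with SE 0.15, adjusted p = 0.857). Among clusters of at least 300 cells Hif1a ran from 115 raw CPM in that led by Xcl1, Cd7 and Gzmc to 926 in that led by Trdc, Il17a and Areg (libraries pooled).

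The abundant enzymes gave no call in T/NK-like cells. Gapdh stood at 1258, 1077 and 1461 CPM in Apc ICI 1 to 3, against 1414, 1489 and 1469 for AOM PN 1 to 3 (log2 change 0.20 with SE 0.12, adjusted p = 0.324). Ldha stood at 689, 642 and 675 CPM in Apc ICI 1 to 3, against 670.2, 720.04 and 715 for AOM PN 1 to 3 (log2 change 0.07 with SE 0.09, adjusted p = 0.690). Aldoa stood at 642, 589.7 and 749 CPM in Apc ICI 1 to 3, against 623, 643 and 616 for AOM PN 1 to 3 and Pkm at 590.4, 519 and 719.6 CPM in Apc ICI 1 to 3, against 502, 561 and 572 for AOM PN 1 to 3, with log2 changes of -0.07 and -0.16. In none of these 4 did the groups stand apart. Slc16a3 came close to the threshold (log2 change -0.72 with SE 0.19, adjusted p = 0.0522). P4ha2 had the largest change (2.17, adjusted p = 0.0505), on 5 UMIs for Apc ICI and 86 for AOM PN. The remaining members tested ranged from -0.41 (Slc2a3) to 0.97 (Aldoc), and Adm was not tested (8 and 40 UMIs). Mast cell markers in these sums totalled 88.1 to 166 raw CPM for Apc ICI against 343 to 1770.1 in AOM PN, none of 7 at 0, and P4ha2 was highest in mast-like cells (14.4 raw CPM); their part was not tested.

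The change between the models differed between the 4 classes for 15 of the 33 members, tested as group-by-class terms in 1 fit with library as a block. Of all 14186 genes tested there, 38.4% differed, against 45.5% of the members. The lowest p-values belonged to Aldoc, Bnip3 and Ndrg1. Bnip3 changed by -2.91 in epithelial-like cells and by -0.25, -0.07 and -0.32 in neutrophil-, monocyte/macrophage- and T/NK-like cells (adjusted p = 5.02e-06). Aldoc changed by -2.08, 0.02, 0.29 and 0.97 in the same order (adjusted p = 4.10e-06), and Ndrg1 by -2.45, 0.08, 0.03 and -0.77 (adjusted p = 7.59e-06). Slc16a3 was the only member called in opposite directions, at -0.91 in epithelial-like and 1.24 in neutrophil-like cells, with 0.28 and -0.72 in the other 2 (adjusted p = 5.81e-05). Tpi1 was lower in neutrophil-like cells (-1.31) and between -0.07 and 0.15 elsewhere (adjusted p = 2.16e-04). For Hk2 the changes were all upward but of unequal size, 1.55, 0.39, 0.63 and 0.67 (adjusted p = 0.0177). The number of members that differed was 10 to 16 when 1 library was left out, lowest without Apc ICI 2 (10), and 11 without Apc ICI 1.

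In epithelial-like cells 7 of 28 tested genes of glycolysis and glucose handling rose and 6 fell, 1 of 7 of the HIF machinery rose and 2 fell, and 8 of 28 further hypoxia-responsive genes rose and 5 fell, beside 20.7% higher and 18.7% lower of all genes. Nos2, inducible nitric oxide synthase, rose from 1.31 ± 0.618 to 81.9 ± 22.7 CPM (log2 change 6.13, adjusted p = 7.69e-06), and Car12, a carbonic anhydrase that HIF can induce, rose from 0.803 ± 0.276 to 28.7 ± 6.67 CPM (log2 change 5.23, adjusted p = 7.95e-06). Epas1, which encodes HIF-2α, rose from 3.76 ± 0.908 to 29.7 ± 3.98 CPM (log2 change 3.01, adjusted p = 1.81e-05). Pdk4, a pyruvate dehydrogenase kinase induced by fasting, fell from 6.89 ± 1.20 to 0.539 ± 0.718 CPM (log2 change -3.36, adjusted p = 0.00175). These 4 calls held under each alternative in which the gene was tested.

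In neutrophil-like cells 7 of 21 tested genes of glycolysis and glucose handling rose and 3 fell, 0 of 5 of the HIF machinery were called by edgeR (1 at an unadjusted p under 0.05) or DESeq2, and 3 of 23 further hypoxia-responsive genes rose and 7 fell, beside 15.0% higher and 17.6% lower of all genes. Nos2 here fell from 10.3 ± 2.29 to 0.685 ± 0.703 CPM (log2 change -4.15, adjusted p = 8.92e-04). Hmox1, haem oxygenase 1, fell from 741 ± 301 to 122 ± 46.4 CPM (log2 change -2.60, adjusted p = 0.00144); within the Il23a-led cluster its change was -0.997 at an adjusted p of 0.116. Ak4, a mitochondrial adenylate kinase, fell from 1.96 ± 0.946 to 0.354 ± 0.212 CPM (log2 change -2.41, adjusted p = 0.0123), a call lost on leaving out Apc ICI 1 (adjusted p = 0.0583). Bpgm, which makes 2,3-bisphosphoglycerate in red cells, fell from 27.9 ± 16.5 to 7.47 ± 6.68 CPM (log2 change -1.94, adjusted p = 0.0480), a call lost on leaving out Apc ICI 1 or 3, or AOM PN 2 or 3 (adjusted p = 0.0922 to 0.150), and the erythroid markers above moved with it; their part was not tested. In monocyte/macrophage-like cells 1 of 59 genes of the 3 lists was called, the lipid droplet gene Hilpda, which rose from 308 ± 42.8 to 633 ± 56.4 CPM (log2 change 1.04, adjusted p = 0.0109), a call lost on leaving out Apc ICI 2 (adjusted p = 0.0608). DESeq2 called 6 of the 59. The count of all genes it called in this class is given in the last section, and the 6 are not read as a result about the lists. In T/NK-like cells 1 of 52 was called, the Myc antagonist Mxi1, which fell from 179.97 ± 15.9 to 112 ± 10.2 CPM (log2 change -0.68, adjusted p = 0.0182), a call lost on leaving out Apc ICI 1 or 3, or AOM PN 1 or 2 (adjusted p = 0.0506 to 0.0647).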

How the data were processed

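Gene by cell UMI count matrices, 1 per tumour library, were deposited by the authors as raw counts; libraries were 10x 3′, and Cell Ranger 6.1.2 and mm10 are named in the submitters' processing notes. Barcodes under 200 genes or over 20% mitochondrial UMIs were dropped, and doublets were scored on simulated pairs at 0.8% per 1000 barcodes (5.50% to 12.9% removed per library). Cells were clustered with Leiden (leidenalg 0.10.2, 2000 variable genes, 30 components, 20 neighbours, resolution 1). A class was named from at least 3 detected markers, and names rebuilt this way may differ from the authors'. The handling of ties among leading genes and of haemoglobin-rich clusters was set after seeing the clusters.

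UMIs were summed per library and class (984873 to 21305601 per sum) and tested with edgeR 4.0.16 (TMM, filterByExpr, quasi-likelihood, Benjamini-Hochberg over all genes of the class; R 4.3.3). Whether the change differed between classes was tested in 1 fit over 4 classes with library as a block. DESeq2 1.42.0, scaling by totals, no count filter, doublets kept, a 10% mitochondrial limit, haemoglobin removed, cells thinned to 1500 UMIs, a replicate block and leaving out each library were alternatives; 3 more were chosen after seeing the data. The fits were tested on simulated data: 36% to 46% of 2-fold and 97% to 99% of 4-fold changes were recovered in the 4 classes, and 6% and 73% in the test between classes. All genes had the same fixed dispersion, and 100 genes of adequate counts were changed at each fold. Between classes the changes were put in epithelial-like sums only, with no library effect shared by the classes. The rates hold for these settings and may differ in the real fits. Library pairs differed beyond sampling noise (chi-square per degree of freedom of at least 21.3).

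The members and the lists of other pathway genes were chosen with earlier results of these data known. Per class, values of each library are given for the 6 called members of largest change, members called in opposite directions, the 5 most abundant members and Hif1a. The 4 most changed called genes of the other lists are named, with Egln1 and Egln2 in addition as relatives of Egln3. Other members are given as ranges or log2 changes. Reads of Gapdh, Aldoa, Eno1, Ldha and other genes with near-identical copies may be split between copies, so their levels are uncertain to that extent. Promoter sequences came from RefSeq (GRCm38.p6).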

Additional observations from a re-analysis of the deposited data

Results flagged for a closer look

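The difference between AOM PN and Apc ICI was unequal across the 4 cell classes for 15 members, tested as group-by-class terms with edgeR's quasi-likelihood test. In each list below, the log2 changes are for epithelial-, neutrophil-, monocyte/macrophage- and T/NK-like cells in that order. Aldoc (adjusted p = 4.10e-06), Bnip3 (adjusted p = 5.02e-06), Ndrg1 (adjusted p = 7.59e-06) and P4ha2 (adjusted p = 6.40e-04) fell most in epithelial-like cells. P4ha2 changed by -1.79 in epithelial-, -0.69 in monocyte/macrophage- and 2.17 in T/NK-like cells, on few UMIs outside the epithelium, and was not tested in neutrophil-like cells. Slc16a3 (adjusted p = 5.81e-05) was called in opposite directions in epithelial- and neutrophil-like cells. Slc2a3 (adjusted p = 0.00160) rose in neutrophil-like cells by 1.22, changed by 0.27 and -0.41 in monocyte/macrophage- and T/NK-like cells, and was not tested in epithelial-like cells. Tpi1 (adjusted p = 2.16e-04) and Mif (adjusted p = 0.00363) fell in neutrophil-like cells and passed the test in no other class; Mif changed by -0.27, -0.82, 0.04 and 0.28.

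Pfkp (adjusted p = 1.08e-04) changed by 0.84, 0.80, -0.19 and -0.28. Gapdh (adjusted p = 0.00703) changed by -0.13, 0.75, 0.05 and 0.20, and its rise in neutrophil-like cells was lost without any of 3 libraries and with scaling by totals. Ddit4 (adjusted p = 0.00794) changed by 0.58, -0.25, 1.13 and 0.57. Hk2 (adjusted p = 0.0177) changed by 1.55, 0.39, 0.63 and 0.67. Slc2a1 (adjusted p = 0.0263) changed by -0.70, 0.27, -0.04 and -0.09 and Bnip3l (adjusted p = 0.0351) by -0.57, -0.63, -0.07 and -0.12. Adm (adjusted p = 0.00150) was tested within epithelial-like cells only, where it changed by 0.94 without a call, and had 3 to 40 UMIs per group elsewhere.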

How the results depend on the processing

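Of the 30 member results called in a class, 17 kept their call whichever library was left out and 7 kept it in every alternative that gave a value, all 7 in epithelial-like cells. Over members and alternatives, 1695 results stayed on the same side of the threshold, turns of direction without a call in either run included. A further 53 passed it newly, 102 lost it, and 8 turned direction with a call in the main or the alternative run. The turned ones were Vegfa (-0.27 in cells of at least 10000 UMIs and -0.15 without the Gm26917-led sub-clusters) and Ddit4 (-0.092 in deep cells) in epithelial-like cells and, in the Il23a-led neutrophil-like cluster alone, Tpi1 (0.10), Mif (0.30), Bnip3l (0.048), P4ha1 (0.98) and Pfkfb4 (-0.20); the cause was not tested. In cells thinned to 1500 UMIs, where fewer counts are left, 10 members and 1887 genes were called in epithelial-like, 1901 genes in neutrophil-like, 1 member and 182 genes in monocyte/macrophage-like and 286 genes in T/NK-like cells, and 2597 genes differed between classes. P4ha2 and Pfkfb4 gave no value in the thinned epithelial-like sums. In the Il23a-led cluster 2 members and 164 genes were called. In monocyte/macrophage-like cells DESeq2 called 5 members and 756 genes, totals without TMM 1 and 503, no filter 6 and 1099, and a 10% mitochondrial limit 1 member. In T/NK-like cells no filter gave 6 members and 1371 genes, and keeping doublets 4 members. Leaving out 1 library gave 13 to 17 members called in epithelial-like cells, 4 to 9 members and 1577 to 2958 genes in neutrophil-like, 0 to 3 members and 14 to 546 genes in monocyte/macrophage-like, and 0 to 3 members and 64 to 673 genes in T/NK-like cells, with 3418 to 5095 genes differing between classes. Deviations of same-numbered libraries from their group means had correlations from -0.22 to 0.12 over the 4 classes (-0.21, 0.12 and -0.16 in epithelial-like cells). With 3 libraries per group these values constrain each other and cannot exclude a pairing, and the labels name none. With a replicate block 14, 6, 1 and 2 members were called in epithelial-, neutrophil-, monocyte/macrophage- and T/NK-like cells. That block gave 102 genes in the monocyte/macrophage-like and 333 in the T/NK-like fit. Member counts in this section without a count of all genes beside them are not read as a result about the members.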
